A study of Mus musculus with 8 samples.

Results

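The histone acetylation H3K9ac, a mark of active promoters and enhancers, was mapped by ChIP-seq in whole BM cells of C57BL/6 mice, all of which carried the *Nup98-HOXD13* transgene as a model of MDS. The mice were *GFI1-36S* or *-36N*, which express 1 of 2 variants of human GFI1, or *-KD*, in which GFI1 expression is reduced, and each genotype gave 1 library labelled no curcumin (vehicle) and 1 labelled curcumin (20 mg/kg, injected weekly), 6 libraries in all. Their ages, and whether a library holds 1 mouse or several, are not given in the sources used here, and an input sample and a rabbit IgG sample were not used here. The regions described here are strong H3K9ac sites that were missing from the *GFI1-36S* curcumin list alone. The autosomal peaks of the 6 lists were merged wherever they overlapped, which gave 63474 regions. A region was strong when each of the 5 other libraries had a peak with a fold enrichment of at least 10, the fold enrichment being the authors' ratio of fragments at the peak summit to the local background. Of 8007 strong regions, 378 had no *GFI1-36S* curcumin peak and are called missing regions, and 7629 had one and are called kept regions. The regions were thus chosen by their fold enrichments and their missing peak, so these values are a description and carry no test, and no difference could be checked in a replicate because each group is a single library.

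GFI1 is a transcriptional repressor that recruits histone-modifying enzymes and steers blood progenitors between lineages. Myeloid cells depend on a small set of transcription factors. PU.1, the product of *Spi1*, and the C/EBP family open promoters and enhancers of granulocyte and monocyte genes, among them the receptors for the myeloid growth factors G-CSF and M-CSF. Promoters rich in CpG dinucleotides are often acetylated in many cell types, whereas CpG-poor promoters and enhancers are more often active in a single lineage.

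The *GFI1-36S* curcumin library stood apart from the others. It listed 20354 peaks, against 30784 to 49213 in the other libraries. A T-cell marker list of 32 genes had a promoter peak at 28 genes in this library and at 11 to 16 in the others, and the fold enrichments of these peaks summed to 295 against 83.1 to 123. *Cd4*, *Cd3e* and *Cd8b1* had a promoter peak in this library alone, and *Cd8a* had none in any library. Of 34 neutrophil markers, 1 had a promoter peak in it and 22 to 31 in the others, with sums of 4.45 against 196 to 402. Of 32 monocyte and macrophage markers, 3 had one against 27 to 31, with sums of 15.1 against 347 to 496. *Lyz2*, *Csf1r* and *Cd14* of this list and *Itgam* of the neutrophil list were among those without a promoter peak in this library. It was also the library with 3 peaks on chromosome Y, where the others had 0, and with 0 peaks at *Xist*, where the others had 1 to 3. The promoter of *Gfi1* itself had a peak in all 6 libraries. The name of the *GFI1-36S* curcumin peak list carries the opposite treatment, as does that of the *GFI1-36S* vehicle list, and the labels were followed here. Every missing region rests on this library, and the part of its other differences in the result was not tested. In such bulk samples, fewer cells of a type and less acetylation per cell cannot be told apart.

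Sequences at the summits are shown for 7 missing regions at genes of the marker lists, chosen in order of their level outside annotated UTRs, because they hold both kinds of promoter found among the missing regions, one dense in CpG and one nearly free of it. Each is the 200 bp around the median summit on the plus strand of mm10 (GRCm38.p6), in lower case, with every CpG in capitals.
Zeb2 promoter region, chr2:45109535-45109734: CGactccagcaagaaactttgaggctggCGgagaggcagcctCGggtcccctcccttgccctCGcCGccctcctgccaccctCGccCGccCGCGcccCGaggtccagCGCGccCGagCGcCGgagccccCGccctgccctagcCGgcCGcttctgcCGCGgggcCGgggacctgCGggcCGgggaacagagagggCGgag
Spi1 promoter region, chr2:91097009-91097208: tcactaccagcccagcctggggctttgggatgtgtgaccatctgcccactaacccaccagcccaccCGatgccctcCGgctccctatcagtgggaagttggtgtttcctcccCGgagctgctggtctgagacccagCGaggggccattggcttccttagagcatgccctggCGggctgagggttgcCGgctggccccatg
Cebpd promoter region, chr16:15887504-15887703: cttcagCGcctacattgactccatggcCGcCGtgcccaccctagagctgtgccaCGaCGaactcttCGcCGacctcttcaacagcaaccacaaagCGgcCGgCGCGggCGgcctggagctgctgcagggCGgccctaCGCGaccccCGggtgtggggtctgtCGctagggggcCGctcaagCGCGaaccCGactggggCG
Hhex promoter region, chr19:37435090-37435289: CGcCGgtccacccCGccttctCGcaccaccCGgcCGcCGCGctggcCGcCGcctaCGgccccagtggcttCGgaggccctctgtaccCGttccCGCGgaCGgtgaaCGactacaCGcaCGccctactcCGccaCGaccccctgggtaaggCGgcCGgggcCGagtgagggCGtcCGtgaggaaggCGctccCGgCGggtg
Plek promoter region, chr11:17008367-17008566: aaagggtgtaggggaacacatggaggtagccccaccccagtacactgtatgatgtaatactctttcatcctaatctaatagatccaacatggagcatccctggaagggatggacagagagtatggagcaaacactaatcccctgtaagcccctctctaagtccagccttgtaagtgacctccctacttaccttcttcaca
Tyrobp promoter region, chr7:30414053-30414252: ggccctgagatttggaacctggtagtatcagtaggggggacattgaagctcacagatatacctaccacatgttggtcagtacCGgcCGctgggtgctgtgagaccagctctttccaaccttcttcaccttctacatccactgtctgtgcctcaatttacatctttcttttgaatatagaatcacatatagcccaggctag
Klf4 distal region, chr4:55651380-55651579: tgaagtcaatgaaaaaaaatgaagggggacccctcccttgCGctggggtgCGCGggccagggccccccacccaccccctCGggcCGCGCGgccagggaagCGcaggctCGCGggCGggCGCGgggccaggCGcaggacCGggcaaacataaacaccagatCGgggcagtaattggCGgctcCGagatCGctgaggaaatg

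The windows of *Zeb2*, *Cebpd* and *Hhex*, all genes of transcription factors, held 24, 22 and 29 CpGs. The *Spi1* window held 6. The windows of *Plek* and *Tyrobp*, genes of differentiated myeloid cells and platelets, held 0 and 2 CpGs. The *Klf4* window, which lies outside coding genes, held 19. By annotation, the *Spi1* and *Tyrobp* windows lie in introns, and those of *Zeb2*, *Cebpd*, *Hhex* and *Plek* overlap an exon near one of the gene's annotated starts.

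The absence of strong sites was a feature of this library's list. The 378 missing regions were 4.72% of the 8007 strong regions. When the same rule was applied with each other library as the missing one, it found 0 of 5610 regions (0%) for *GFI1-36S* vehicle, 3 of 5625 (0.0533%) for *GFI1-36N* vehicle, 0 of 5596 (0%) for *GFI1-36N* curcumin, 0 of 5601 (0%) for *GFI1-KD* vehicle and 1 of 5641 (0.0177%) for *GFI1-KD* curcumin. The smaller totals of strong regions in these counts arise because the *GFI1-36S* curcumin library, with 6311 autosomal peaks of at least 10 against 9330 to 10768 in the others, then has to pass the threshold as well.

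The missing regions lay toward the lower end of the strong sites, with some at high levels. The lowest of the 5 values reached 36.3 among missing and 49.99 among kept regions. Their median fold enrichment was 15.2 in *GFI1-36S* vehicle, 14.9 in *GFI1-36N* vehicle, 16.4 in *GFI1-36N* curcumin, 18.1 in *GFI1-KD* vehicle and 17.1 in *GFI1-KD* curcumin. The kept regions had medians of 23.2, 20.1, 24.6, 25.7 and 22.0 in the same libraries and 13.2 in *GFI1-36S* curcumin. Of strong regions whose lowest value in the 5 libraries was between 10 and 12, 16.2% were missing. The share was 8.18% between 12 and 15, 3.25% between 15 and 20, 1.47% between 20 and 25, 0.671% between 25 and 30 and 0.952% at 30 or more. So the loss was most frequent near the threshold, where the median *GFI1-36S* curcumin value of the kept regions was 7.78, yet 6 of 630 regions at 30 or more had no peak where their kept neighbours in level had a median of 22.8.

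**Figure D1:**
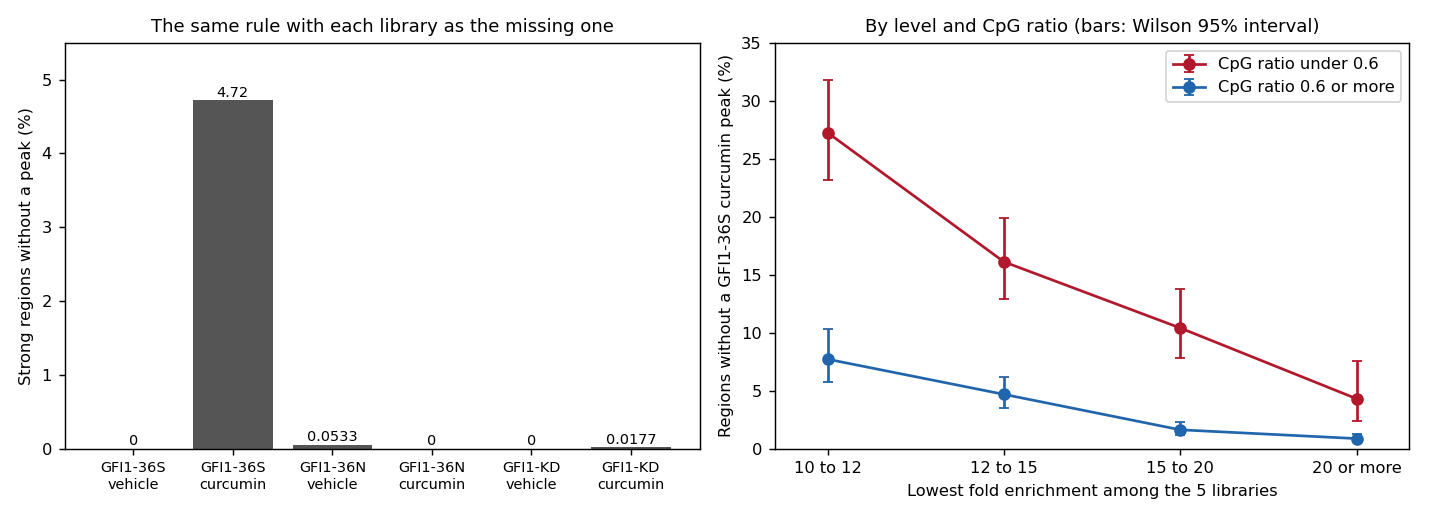
Left, percentage of strong regions without a peak when the same rule was applied with each of the 6 libraries as the missing one: 4.72% for GFI1-36S curcumin and 0.0533% or less for the others. Right, percentage of strong regions missing from GFI1-36S curcumin (y axis) by the lowest fold enrichment in the 5 other libraries (x axis) and by CpG observed/expected ratio in 1 kb, with Wilson 95% intervals that cover counting error only.

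The threshold of 10 cut a continuous distribution. In all, 7668 autosomal regions had a peak in the 5 libraries and none in *GFI1-36S* curcumin, and 7290 of these fell below 10 in at least 1 library. The 3 regions just inside lay in introns of *Pdpn*, *Arhgap31* and *Scnn1a*, each with a lowest value of 10.04. The 3 just outside were intergenic regions nearest to *Nxpe4* and *Zfp36l2*, both 9.9964, and the promoter of *Nlrp3*, 9.96821. *Nlrp3*, which encodes an inflammasome sensor of myeloid cells, was kept out by its *GFI1-36S* vehicle value, while its other values were 12.2 to 19.7.

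Fragment counts at the summits follow in part from the fold enrichment of at least 10 by which the regions were chosen, so they are a description. Whole fragment counts recovered from the authors' fold enrichment and p-value gave a median of 93 at these summits in *GFI1-36S* vehicle. The medians were 104 in *GFI1-36N* vehicle, 94 in *GFI1-36N* curcumin, 133 in *GFI1-KD* vehicle and 104.5 in *GFI1-KD* curcumin. Kept regions had higher medians in these libraries, with 142 in *GFI1-36S* vehicle and 139, 140, 188 and 137 in the others in the same order. A single summit with 93 fragments has an exact Poisson 95% interval of 75.1 to 114, which is not the spread of the summits. In *GFI1-36S* vehicle the summits ranged from 59 to 238 fragments. The lowest summit of a missing region held 57 to 74 fragments, depending on the library, and that of a kept region 57 to 73 in the same libraries. The weakest peak that was listed in *GFI1-36S* curcumin held 14 fragments, and the weakest kept region there held 15. The lists give no value where no peak was called, so the level of a missing region in *GFI1-36S* curcumin is unknown below what the peak caller accepted.

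The 5 libraries differed little at most of the missing regions. The highest of the 5 values was a median of 1.52 times the lowest, against 1.40 among kept regions, and exceeded 2 times the lowest at 33 of the 378. *GFI1-KD* vehicle held the highest value at 171 missing regions, *GFI1-KD* curcumin at 96, *GFI1-36N* curcumin at 68, *GFI1-36S* vehicle at 26 and *GFI1-36N* vehicle at 17. The same count was not made for kept regions, where *GFI1-KD* vehicle also had the highest median, 25.7, so its lead is not particular to the missing regions. In *GFI1-36N* mice, the curcumin value was a median of 1.08 times the vehicle value at missing regions and 1.20 times at kept regions. In *GFI1-KD* mice, the ratio was 0.923 at missing and 0.866 at kept regions. Fold enrichments are not normalized between libraries, so these ratios also carry library-wide shifts. In *GFI1-36N* mice, the list without curcumin is named +ki and the one with curcumin kiki, a difference that the labels do not state and that the *GFI1-36N* ratio cannot be told apart from. The peaks were as wide as those of kept regions, with a median of 2079.5 bp against 2141 bp.

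Most missing regions were promoters, but fewer than among kept regions. A promoter reached 1 kb to either side of a TSS, and all TSSs of protein-coding genes were used. Of the missing regions, 275 (72.8%, Wilson 95% interval 68.1 to 77.0) overlapped a promoter, against 94.0% (93.5 to 94.5) of kept regions. Introns held 32 (8.47%, 6.06 to 11.7) against 1.28% (1.06 to 1.56), and intergenic sequence 67 (17.7%, 14.2 to 21.9) against 4.52% (4.08 to 5.01), while 4 lay in exons. Intergenic missing regions had their summit a median of 22263 bp from the nearest TSS of a coding gene, and intronic ones 10788.5 bp. Only 13 missing regions (3.44%) covered promoters of more than 1 gene, against 16.2% of kept regions. The intervals of the promoter, intron and intergenic shares did not overlap between missing and kept regions. These shares were not compared at equal levels, and the lowest of the 5 values had a median of 12.63 at missing and 19.05 at kept regions. At thresholds of 15 and 20, the promoter share of missing regions was 88.4% and 92.3%, and that of kept regions was not counted.

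Few missing regions lay beside a peak of the library that lacked them. Only 9 lay within 1 kb of a *GFI1-36S* curcumin peak and 59 (15.6%) within 10 kb, and the median distance was 47295 bp. Of 287 genes with a missing promoter region, 254 had no *GFI1-36S* curcumin peak at any of their promoters. In all, 49 missing regions (12.96%) lay within 100 kb of another, and each autosome held some, from 2.75% of its strong regions on chromosomes 11 and 15 to 7.62% on chromosome 19.

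The DNA under the missing regions was poor in CpG. The ratio of observed to expected CpGs in the 1 kb around the summit had a median of 0.470 at missing and 0.765 at kept regions, and the GC content was 55.0% against 60.3%. Of the missing regions, 234 (61.9%, Wilson 95% interval 56.9 to 66.7) had a ratio under 0.6, against 16.6% of kept regions. At promoters alone the shares were 50.2% and 14.3%, and at other sites 93.2% and 53.2%. Read the other way, 15.6% of the 1501 CpG-poor strong regions were missing and 2.21% of the 6506 others. The difference was present at each level, with 27.3% against 7.72% missing where the lowest of the 5 values was 10 to 12, 16.1% against 4.69% at 12 to 15, 10.4% against 1.64% at 15 to 20, and 4.31% against 0.880% at 20 or more. Missing promoters thus spread over CpG-poor and CpG-rich sequence, and other missing sites were nearly all CpG-poor.

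**Figure D2:**
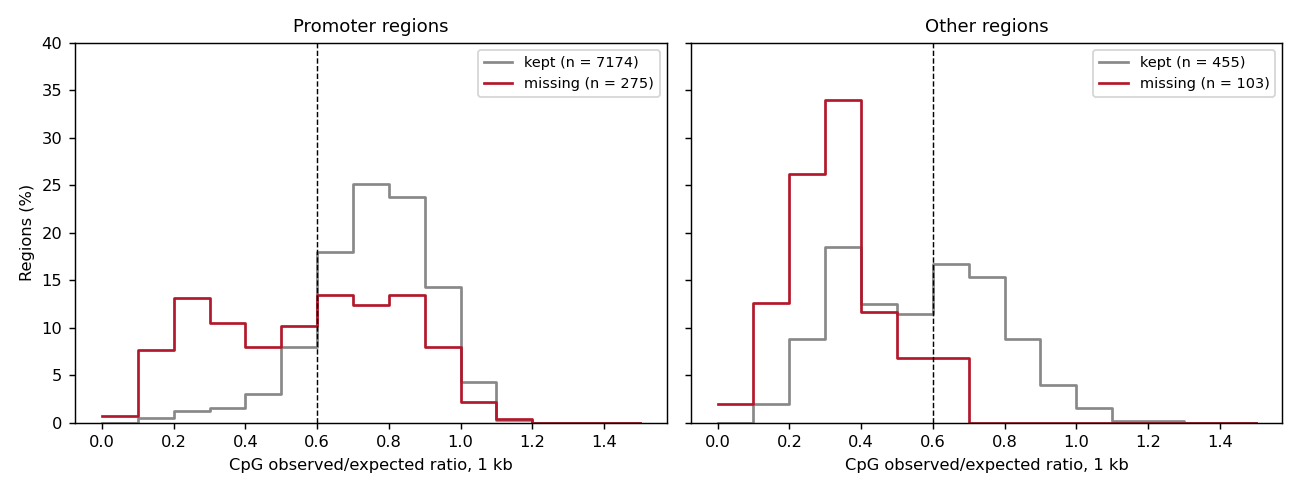
Distribution of the CpG observed/expected ratio (x axis, 1 kb around the summit) over missing and kept regions as a percentage of regions per bin of 0.1 (y axis), for promoter regions (left) and other regions (right). The dashed line marks 0.6, under which 50.2% of missing and 14.3% of kept promoter regions lay.

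Short motifs of blood transcription factors were counted in the 300 bp around each summit, on both strands. Matches to the C/EBP motif TTGCNNAA stood in 34 missing regions (8.99%, Wilson 95% interval 6.51 to 12.3) and in 4.99% of kept regions. The GATA motif AGATAAG stood in 3.17% (1.83 to 5.47) against 0.904%, and the AP-1 motif TGANTCA in 5.82% (3.87 to 8.65) against 2.63%. The PU.1 motif GAGGAAGT stood in 9 missing regions (2.38%, 1.26 to 4.46) against 1.48%, with intervals that overlap, and the ETS motif CAGGAAGT, which shares most of its letters with it, in 3.17% (1.83 to 5.47) against 1.47%. In 1000 bp the PU.1 shares were 13.2% (10.2 to 17.0) and 7.60% (7.03 to 8.22), with intervals that do not overlap. At promoter regions alone they were 9.09% and 7.42% in 1000 bp, with intervals that overlap. The GFI1 motif AATCNNNGC stood in 10.8% (8.10 to 14.4) against 6.83%, but in 1000 bp the shares were 27.5% and 28.5%, and in the RefSeq promoters of missing and kept regions 7.72% and 11.3%. The E-box CAGNTG stood in 54.5% (49.5 to 59.4) against 45.3%. Shares for the RUNX motif were 3.17% and 2.25%, for MYB 10.6% and 11.95%, for HOXA9 1.32% and 0.564%, for MEIS 15.6% and 14.3%, for TCF/LEF 2.38% and 1.09% and for CRE 1.06% and 0.800%. The GC box GGGCGG, which marks CpG-rich promoters, stood in 31.2% (26.8 to 36.1) against 55.4%. In the RefSeq promoters (250 bases before to 50 after a start, GRCm38.p6), C/EBP matches were no more frequent in the 272 that lie inside missing regions (6.25%) than in the 8516 inside kept regions (7.43%) or in all 32851 (10.8%). GATA matches were found in 4.41%, 1.30% and 3.04% of these promoters. At promoter regions alone, the 300 bp shares were 1.82% and 1.38% for ETS and 8.36% and 6.79% for GFI1, with intervals that overlap. The intervals did not overlap for C/EBP (8% and 4.73%), GATA (2.55% and 0.767%) and AP-1 (5.82% and 2.52%). The base composition and the location of the sets differ, and their part in these shares was not tested.

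Genes of 14 lists of blood cell types and control genes were then followed. In all, 33 missing regions (8.73%) were assigned to a listed gene, against 86 kept regions (1.13%). Over all strong promoter regions, 275 of 7449 (3.69%) were missing. Among listed genes covered by a strong promoter region, the region was missing at 11 of 14 monocyte and macrophage markers, 3 of 4 neutrophil markers, 8 of 18 stem and progenitor regulators and 8 of 19 C/EBP and PU.1 myeloid regulators, with *Spi1* in both sets. A merged region can be wider than 1 promoter. When only peaks on the gene's own promoter were counted, an alternative chosen after seeing the data, the progenitor list had 7 of 16 missing, with *Lyl1* added and *Hoxa3* and *Hoxa9* dropped, the neutrophil list 2 of 3 and the C/EBP and PU.1 list 7 of 19, and the monocyte and macrophage list kept its 11 of 14. The lists are short and share genes, and differences between them were not tested. The megakaryocyte and platelet list had 2 missing and 2 kept promoters and the mast cell, basophil and eosinophil list 2 and 1. No promoter of the erythroid list (8 kept), the interferon-stimulated list (11 kept), the housekeeping list (15 kept), the dendritic cell (3 kept), B-cell, T-cell or stroma and endothelium list (2 kept each) was missing, and the natural killer list had no strong promoter. *Csf1r*, *Csf3r*, *Klf4* and *Irf8* stand on more than 1 of these lists.

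**Figure D3:**
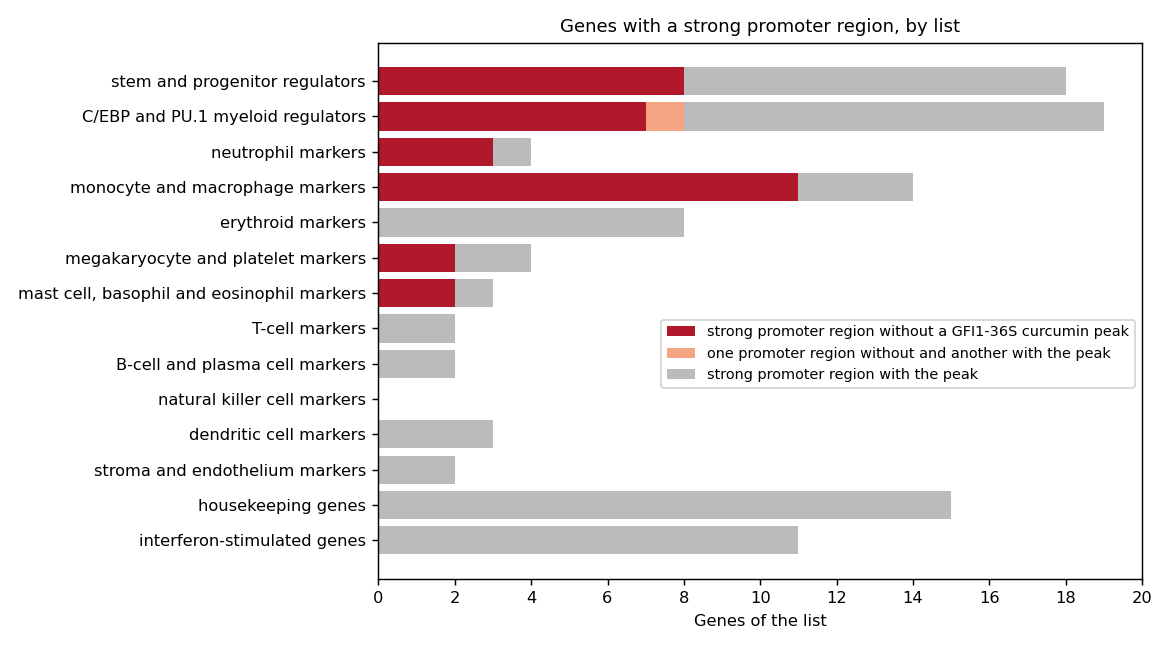
Number of genes (x axis) of each of 14 lists (y axis) with a strong promoter region, split by whether that region had a GFI1-36S curcumin peak. Missing promoters were 11 of the 14 in the monocyte and macrophage list and 0 of the 15 in the housekeeping list.

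Transcription factor genes were found at high and at low levels among the missing regions. *Zeb2*, which encodes a zinc-finger transcriptional repressor that acts in myeloid and dendritic differentiation, ranked first of all 378. It had 37.3 in *GFI1-36S* vehicle, 36.3 in *GFI1-36N* vehicle, 39.3 in *GFI1-36N* curcumin, 40.7 in *GFI1-KD* vehicle and 36.4 in *GFI1-KD* curcumin. *Cebpd*, a C/EBP factor of granulocytes and macrophages, had 31.9, 29.9, 31.7, 39.4 and 32.6 in the same order. *Cebpa*, the C/EBP factor required to form granulocyte and monocyte progenitors, had 20.8, 22.1, 23.5, 22.6 and 26.0. The 5 values of each of these genes lay close together, and all stood at 2 times the threshold or more. *Cebpb*, the C/EBP factor of emergency granulopoiesis, was kept with 12.8 in *GFI1-36S* curcumin, where its other values were 27.3 to 34.7.

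At *Spi1*, which encodes PU.1, the missing region was the main promoter, chr2:91095869-91099899, with 32.4 in *GFI1-36S* vehicle, 35.5 in *GFI1-36N* vehicle, 33.2 in *GFI1-36N* curcumin, 43.6 in *GFI1-KD* vehicle and 41.2 in *GFI1-KD* curcumin. A second strong region at upstream annotated starts of the gene, chr2:91080043-91088924, was kept. It was the weaker of the pair in every library with both, with 12.1 to 19.4, and had 5.52 in *GFI1-36S* curcumin. The upstream peak was thus the one listed at *Spi1* in that library, while the stronger promoter peak was not.

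*Klf4*, a zinc-finger factor of monocyte differentiation, had a missing promoter region with 14.0, 23.7, 19.2, 21.6 and 30.6 in the same order of libraries. A second missing region, 119014 bp from the nearest annotated start of *Klf4* and closer to no other coding gene, was stronger, with 16.6, 26.9, 20.8, 24.9 and 38.1. Both regions had their lowest value in *GFI1-36S* vehicle and their highest in *GFI1-KD* curcumin. *Irf8*, a monocyte and dendritic cell factor, was kept with 4.63 in *GFI1-36S* curcumin against 12.3 to 22.1 elsewhere.

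Among the progenitor regulators, *Lmo2*, an adaptor of the stem cell transcription factor complex, had 40.1 in *GFI1-36S* vehicle, 32.8 in *GFI1-36N* vehicle, 34.4 in *GFI1-36N* curcumin, 42.6 in *GFI1-KD* vehicle and 34.3 in *GFI1-KD* curcumin. *Hhex*, a homeobox factor of early progenitors, had 33.8, 29.5, 40.7, 32.0 and 30.6 at its promoter. A second missing region lay 11563 bp from the nearest annotated start of *Hhex*, with 15.8 to 20.7. The ETS factor gene *Erg* had 21.3, 19.1, 27.0, 24.9 and 17.4. *Cd93*, a surface receptor of early progenitors, had 14.2 to 20.0, and *Cd33*, a myeloid lectin, 10.6 to 20.4. Other regulators of the list stayed listed, with *GFI1-36S* curcumin values of 10.5 and 9.62 at the promoters of *Runx1*, 21.3 at *Myb*, 14.7 at *Myc*, 21.2 at *Sox4* and 25.3 at *Fli1*. The merged region of *Lyl1*, a partner of *Lmo2*, was kept through a peak of 4.45 away from the *Lyl1* promoter. The promoter itself had no *GFI1-36S* curcumin peak, against 22.7 to 29.2 elsewhere. *Sox4* was the strong gene of this list whose *GFI1-36S* curcumin value exceeded its highest value elsewhere, which was 18.5.

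A single missing region covered the promoters of *Hoxa3*, *Hoxa7* and *Hoxa9*, homeobox genes that are active in stem cells and in *NUP98-HOXD13* leukaemia, at chr6:52210728-52231329. It was one of the widest of the missing regions, with 1 peak of 20292 bp in *GFI1-36S* vehicle and fold enrichments of 37.6 in *GFI1-36S* vehicle, 39.4 in *GFI1-36N* vehicle, 47.1 in *GFI1-36N* curcumin and 41.9 in *GFI1-KD* curcumin. In *GFI1-KD* vehicle the same span was broken into 10 separate peaks, the highest at 10.4. The region therefore had the widest spread of all missing regions, 4.52 times from lowest to highest, and met the threshold in *GFI1-KD* vehicle by little. The nearest *GFI1-36S* curcumin peak, with 4.81, lay 18388 bp away at the *Hoxa4* promoter. At the promoters of *Hoxa3* and *Hoxa9* themselves, the *GFI1-KD* vehicle values were 5.30 and 6.17.

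Receptor genes for G-CSF, M-CSF and GM-CSF were among the missing promoters. *Csf3r*, the G-CSF receptor gene, had 16.6 in *GFI1-36S* vehicle, 18.2 in *GFI1-36N* vehicle, 56.4 in *GFI1-36N* curcumin, 20.2 in *GFI1-KD* vehicle and 23.5 in *GFI1-KD* curcumin. The *GFI1-36N* curcumin value was far above the others and was the highest of any missing region. *Csf1r*, the M-CSF receptor gene, had 11.1, 15.8, 11.1, 12.6 and 20.5 in the same order, and *Csf2rb*, the shared receptor subunit for GM-CSF and related cytokines, had 15.5, 16.5, 24.7, 19.6 and 17.0. The interleukin receptor genes *Il3ra*, *Il6ra* and *Il17ra* on the same list were kept, with 9.62, 5.70 and 12.5 in *GFI1-36S* curcumin.

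Markers of monocytes and macrophages spanned surface receptors, signalling adaptors and effector proteins. *Sirpa*, an inhibitory receptor of phagocytes, was the strongest, with 28.9 in *GFI1-36S* vehicle, 33.6 in *GFI1-36N* vehicle, 32.7 in *GFI1-36N* curcumin, 38.5 in *GFI1-KD* vehicle and 36.4 in *GFI1-KD* curcumin. *Tyrobp* and *Fcer1g* encode the adaptors through which many activating receptors of myeloid cells signal. *Tyrobp* had 18.8, 20.5, 17.5, 28.3 and 26.0, and *Fcer1g* had 16.5 to 24.6. *Syk*, the kinase these adaptors recruit, is on none of the lists and was chosen after its values were seen. It was also missing, with 21.8, 22.4, 22.5, 28.8 and 22.4. An intergenic strong region nearest to *Tyrobp* was kept, with 9.97 in *GFI1-36S* curcumin.

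*Emilin2*, an extracellular matrix gene expressed by myeloid cells, had 20.7 to 33.2, and *Lyz2*, the lysozyme of myeloid cells, 13.1 to 22.3. *Cd14*, the lipopolysaccharide co-receptor, had 12.1 to 23.2, *Mpeg1*, a pore-forming protein of macrophages, 13.6 to 20.7, and *Ctss*, a lysosomal protease, 11.03 to 19.9. *Lyz2*, *Cd14*, *Mpeg1* and *Ctss* were thus within 2 times the threshold in at least 1 library. The kept members of the list were *Irf8*, *Tlr2*, a Toll-like receptor gene with 5.70 in *GFI1-36S* curcumin, and *F13a1*, which encodes a coagulation factor subunit, with 4.79.

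Few neutrophil markers were strong enough in all 5 libraries to be counted. Besides *Csf3r*, the missing ones were *Mgst1*, a microsomal glutathione transferase, with 14.1 to 23.9, and a region with 14.7 to 19.6 that covers the promoters of *Ltb4r1*, a receptor for the chemoattractant leukotriene B, and *Ltb4r2*. The peak on the *Ltb4r1* promoter itself had 5.06 in *GFI1-36S* vehicle. The kept one was *Prtn3*, a granule protease gene, with 4.45 in *GFI1-36S* curcumin and 10.9 to 17.3 elsewhere. The granule genes *Elane*, *Mpo*, *Ltf* and *S100a8* had no *GFI1-36S* curcumin promoter peak either, but fell below 10 in at least 1 other library, as *Elane* did with 3.40 to 8.13.

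The megakaryocyte and platelet list had 3 genes with a missing region, and the mast cell list 2. *Plek*, a signalling protein of platelets and leukocytes, had 25.5 in *GFI1-36S* vehicle, 26.8 in *GFI1-36N* vehicle, 23.6 in *GFI1-36N* curcumin, 28.0 in *GFI1-KD* vehicle and 28.0 in *GFI1-KD* curcumin. *P2ry1*, a platelet receptor for ADP, had 10.8 to 20.2, and an intron of *Vwf*, the von Willebrand factor gene, 13.7 to 18.3. The mast cell genes *Mitf*, a transcription factor, and *Hgf*, a growth factor, had 11.3 to 16.9 and 11.1 to 15.4. The region nearest to the T-cell kinase gene *Prkcq* lay 82521 bp from the nearest annotated start of the gene, with 10.04 to 14.6, and was the sole missing region assigned to the T-cell list.

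**Figure D4:**
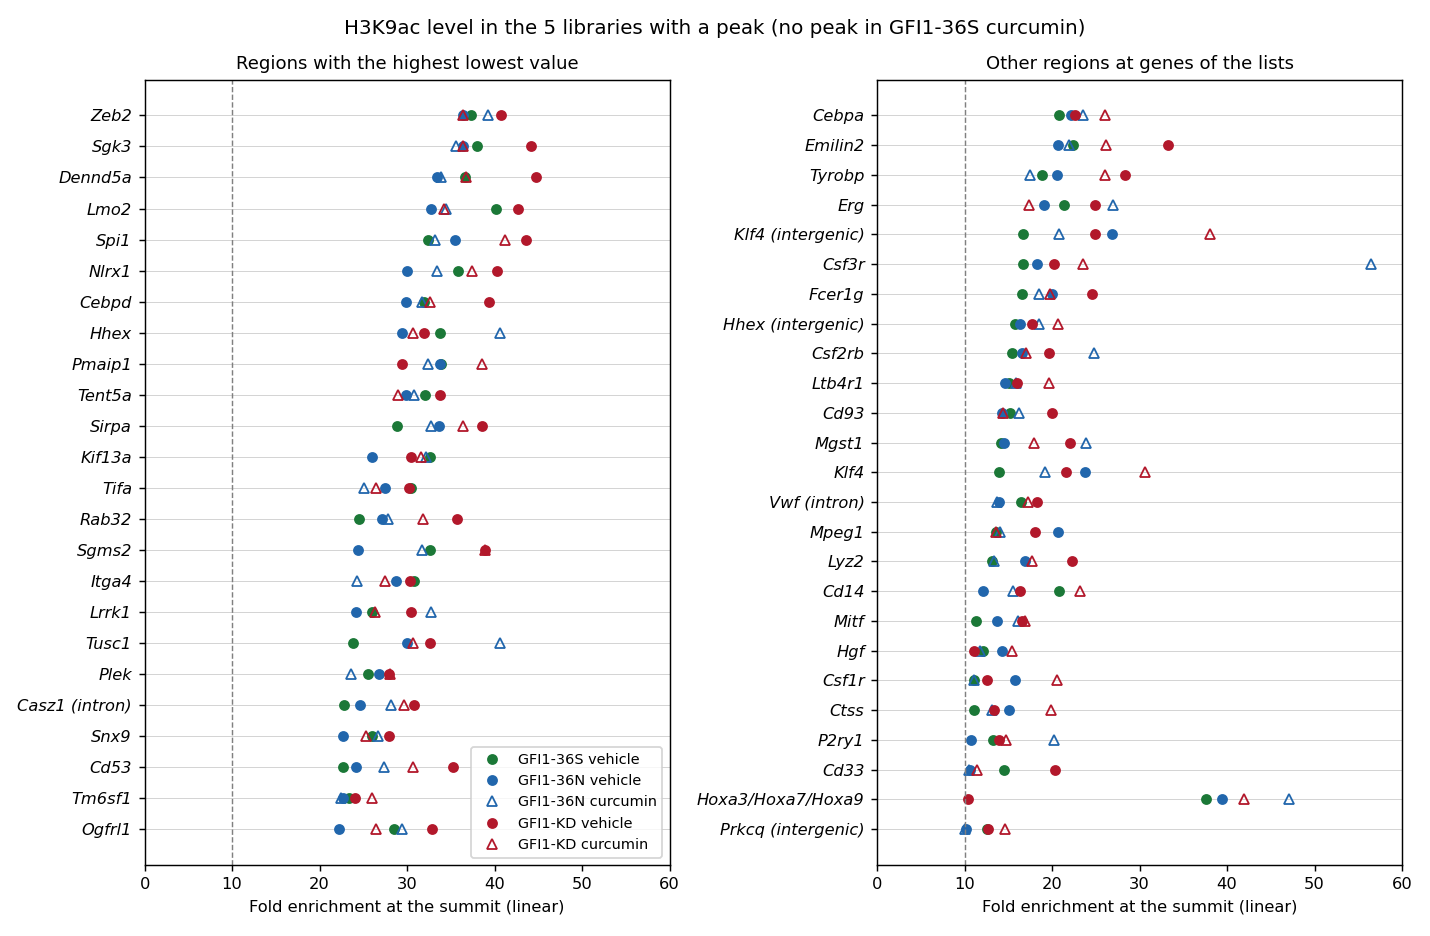
Fold enrichment (x axis, linear) in the 5 libraries with a peak for the missing regions with the highest lowest value (left) and for the other missing regions at genes of the lists (right), 1 point per library. The dashed line is the threshold of 10. The Hoxa region is low in GFI1-KD vehicle alone, and Csf3r is high in GFI1-36N curcumin alone.

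Among the 25 missing regions with the highest lowest value, 8 belonged to listed genes and 17 did not. *Sgk3*, a kinase of the phosphoinositide pathway, ranked second, with 38.0 in *GFI1-36S* vehicle, 36.3 in *GFI1-36N* vehicle, 35.7 in *GFI1-36N* curcumin, 44.1 in *GFI1-KD* vehicle and 36.4 in *GFI1-KD* curcumin. *Dennd5a*, which regulates Rab GTPases, had 36.6, 33.5, 33.9, 44.7 and 36.8. *Nlrx1*, a mitochondrial member of the innate sensor family, had 35.8, 30.03, 33.4, 40.3 and 37.4. *Pmaip1*, which encodes the pro-apoptotic protein NOXA, had 33.9, 33.8, 32.4, 29.4 and 38.6. All 4 had values near or above 30 in every library with a peak.

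The rest of the 25 ranged in their lowest value from 29.0 at *Tent5a*, which encodes a poly(A) polymerase, to 22.3 at *Ogfrl1*. They included genes of vesicle traffic, namely *Kif13a*, a kinesin, with 26.0 to 32.6, *Rab32*, a GTPase of lysosome-related organelles, with 24.5 to 35.7, and *Snx9*, a sorting nexin, with 22.7 to 27.9. *Tifa*, an adaptor of NF-kB signalling, had 25.1 to 30.4. *Itga4*, an integrin subunit of blood cells, had 24.2 to 30.7, and *Cd53*, a leukocyte tetraspanin, 22.7 to 35.3. *Sgms2*, a sphingomyelin synthase, had 24.4 to 39.0, *Lrrk1*, a kinase, 24.1 to 32.7, *Tusc1* 23.9 to 40.7 and *Tm6sf1* 22.5 to 26.0. *Casz1*, a zinc-finger factor gene, was the one region of the 25 outside a promoter, in an intron, with 22.8 to 30.8.

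The remaining missing promoters held further signalling genes of leukocytes, of which the following were chosen after their values were seen. *Plcg2*, a phospholipase downstream of *Syk*, had 19.5 to 26.8, *Pik3ap1*, an adaptor of phosphoinositide kinase, 22.0 to 30.8, and *Fes*, a tyrosine kinase, 18.7 to 25.2. *Dok3*, an adaptor that limits receptor signalling, had 18.1 to 27.2. *Il10ra*, an interleukin receptor, had 22.0 to 33.8, *Nlrc4*, an inflammasome component, 16.3 to 23.2, and *Clec4e*, a lectin receptor of macrophages, 13.1 to 19.4. No list covered these genes, and the share of such genes among all strong promoters was not counted.

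The loss at listed genes was part of a wider difference between libraries in how many promoters of a list carried any peak. Of 27 C/EBP and PU.1 myeloid regulators, 15 had a promoter peak in *GFI1-36S* curcumin and 26 in each other library, and of 46 stem and progenitor regulators 15 against 37 to 39. Of 40 erythroid markers, which held no missing promoter, 10 had one against 23 to 39. Of the 18 housekeeping genes, 17 had one in all 6 libraries, with summed fold enrichments of 325 in *GFI1-36S* curcumin and 448 to 550 elsewhere. The 8 erythroid genes with a strong promoter region were thus kept, while most erythroid promoters that were weaker in the 5 libraries had no peak in *GFI1-36S* curcumin.

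**Figure D5:**
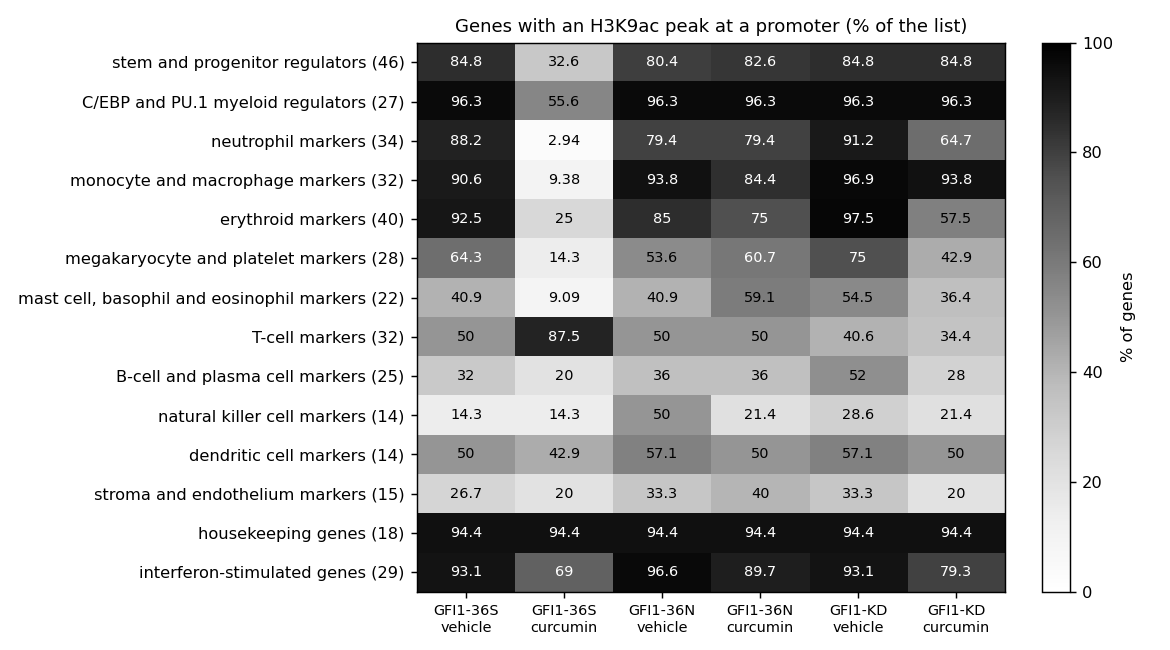
Percentage of the genes of each list (y axis, number of genes in brackets) with an H3K9ac peak of any height at a promoter in each of the 6 libraries (x axis). GFI1-36S curcumin is the highest column for the T-cell list (87.5%), and all columns are equal for the housekeeping list (94.4%). For every other list it is the lowest column or tied for it. Its lowest shares are in the neutrophil (2.94%), mast cell, basophil and eosinophil (9.09%) and monocyte and macrophage (9.38%) lists.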

How the data were processed

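H3K9ac ChIP-seq peak lists of BM cells were taken as deposited, 1 per library. Per the submitters' processing notes and the methods, the authors trimmed reads with Trim Galore, mapped them to mm10 with BWA-MEM, used SAMtools, Picard and deepTools, called peaks with MACS2 in each library and removed black list regions. The control, the threshold and the handling of duplicates are not given in the sources used here. The deposited lists give for each peak a fold enrichment (ratio of summit fragments to local background), a −log10 p and a −log10 q, which the authors' peak caller wrote. The integer score that the authors deposited was not used. The lists carry no read totals, and the whole number of fragments at a summit was worked out from its fold enrichment and p-value for 98.6% to 99.9% of the peaks of a library.

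Autosomal peaks overlapping by at least 1 bp were merged. Genes came from GENCODE release M21 on the same assembly. A region was assigned to the gene whose promoter (1 kb on each side of a coding TSS) it overlapped, then to the gene whose body it lay in, then to the nearest coding TSS. CpG ratios and 14 motifs were read from the GRCm38.p6 sequence around the median of the 5 summits. With Python 3.11.15, numpy 2.4.6, pandas 2.3.3 and scipy 1.17.1, shares were given Wilson 95% intervals, and fragment counts exact Poisson intervals, which cover counting error only. With 1 library per group no test was run. Genes named are those of missing regions on the lists, the 25 with the highest lowest value and the 3 on each side of the threshold, and kept genes of the lists are given beside them. Some genes under this rule are not reported here. The missing regions, lists and motifs were chosen with earlier results of these data known. The code of the rule was tested on a simulated loss, in which the *GFI1-36S* curcumin peaks of 200 kept regions were removed from the real list. All 200 were then found among the 8007 strong regions. The rule fixes this outcome in advance, so it checks the code and says nothing about the regions. Alternatives were other thresholds of fold enrichment or −log10 q, equal numbers of peaks, wider merging and promoter windows, chromosome X, each library left out, all biotypes, nearest genes, the *GFI1-36S* treatments exchanged and other motif and CpG windows.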

Additional observations from a re-analysis of the deposited data

Results flagged for a closer look

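Chromosome X lay outside the comparisons above. Of its 177 strong regions, 9 (5.08%) had no *GFI1-36S* curcumin peak, close to the 4.72% on the autosomes. They drew attention because they carry the same pattern in data that the rule leaves out. The strongest, with a lowest value of 16.4, overlaps *Gm26992* at the *Xist* locus, where *GFI1-36S* curcumin had 0 peaks. Another is the promoter of *Btk*, a kinase of B cells and myeloid cells, with a lowest value of 12.5, and an intergenic one has *Vsig4*, a complement receptor gene of macrophages, as its nearest gene, with 12.7.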

How the results depend on the processing

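The number of missing regions depended on the threshold. It was 725 at a fold enrichment of at least 8, 112 at 15, 39 at 20 and 21 when each peak had to be among the top 10 percent of its list. The share at promoters then was 60.6%, 88.4%, 92.3% and 100%, and 54, 17, 10 and 7 regions belonged to listed genes. Genes of all biotypes gave a promoter share of 78.8%. With the *GFI1-36S* treatments exchanged, as the names of the lists have them, the missing library became *GFI1-36S* vehicle by label and the rule found 0 regions. Leaving each of the 5 libraries out of the requirement gave 403 to 439 missing regions, a promoter share of 69.5% to 72.2% and 33 to 38 regions at listed genes. With motif windows of 1000 bp, the C/EBP motif stood in 36.8% of missing and 24.2% of kept regions, GATA in 10.8% and 5.62%, AP-1 in 23.3% and 12.9% and the GC box in 62.7% and 88.2%. The CpG-poor share was 55.6% in 300 bp (16.5% of kept regions), 52.6% for a ratio under 0.5 (8.42%) and 50.2% at promoters (14.3%), alternatives chosen after seeing the data. A −log10 q of at least 5 gave 427 regions, merging within 1 kb 361 and chromosome X 387. With each list cut to its 20354 peaks of lowest p-value, 378 were found. That cut left the *GFI1-36S* curcumin list whole and took only peaks of higher p-value from the others, so it could hardly change the count. No paired analysis was possible because the groups share only replicate number 1 and the results are counts and shares that come from no test. All missing regions rest on 1 library, whose absent peaks give no value.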
